A study of Mus musculus with 4 samples.

Results

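Polycomb repressive complex 2 (PRC2) was described here by 10 genes. These were its catalytic subunits Ezh1 and Ezh2, the other core subunits Eed, Suz12, Rbbp4 and Rbbp7, and the accessory subunits Jarid2, Mtf2, Phf1 and Phf19. They were picked by gene symbol without a cutoff on measured values, but with earlier results of these data known. All 10 were found once among the 21829 genes analyzed. RNA came from the retina of transgenic mice labelled FVB/N, in which the Hes1 promoter drives a destabilized EGFP. Cells were sorted into EGFP-positive cells (pHes1_EPCs) and EGFP-negative cells (pHes1_ENCs) at postnatal day 1 (P1) and postnatal day 4 (P4). All 4 groups came from such mice without further treatment, and each group was 1 library. The number of animals pooled in a library is not given in the sources used here. The groups therefore have no replicates, and every difference compares 2 libraries and has no test between fractions or ages.

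PRC2 places methyl groups on lysine 27 of histone H3 (H3K27), a mark of repressed genes. Ezh2 and Ezh1 are alternative methyltransferases. Eed binds the methylated histone and stimulates the enzyme, Suz12 holds the complex together, and Rbbp4 and Rbbp7 are paired histone-binding subunits that other chromatin complexes share. Jarid2 marks one form of the complex, and the Polycomb-like proteins Mtf2, Phf1 and Phf19 mark another. Ezh2 is generally abundant in dividing progenitors, whereas Ezh1 is also found in cells that have left the cell cycle. In the early postnatal retina the last progenitors give rise to rods, bipolar cells and Müller glia.

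The fractions were first checked against marker genes. The 8 progenitor markers, which include Hes1 and Hes5, summed to an FPKM of 502 in pHes1_ENCs against 2572 in pHes1_EPCs at P1, and 144 against 1541 at P4. FPKM is the number of fragments of a gene after division by the length of its transcript and the size of the library. In the same order, the 8 Müller glia markers summed to 398, 1203, 274 and 2338, the 7 rod markers to 727, 43.7, 3613 and 686, and the 24 S phase genes to 421, 1870, 191 and 737. pHes1_EPCs were thus rich in progenitor, Müller glia and S phase transcripts at both ages. Their rod transcripts were higher at P4 than at P1. Ccnd1 gave 1406 of the 2572 in P1 pHes1_EPC. In pHes1_EPCs 2 Müller glia markers, Apoe and Rlbp1, were more than 2-fold higher at P4 than at P1. The other 6 were within 2-fold. The globins and Alas2, transcripts of red cells, summed to 185, 0.568, 502 and 6.65, so they were concentrated in both pHes1_ENC libraries. In that order, amacrine markers summed to 81.0, 3.52, 70.9 and 12.0, higher in pHes1_ENC at each age. Slc6a9 gave 62.58 of the 70.9 in P4 pHes1_ENC, against 19.06 in P1 pHes1_ENC. The other amacrine markers found, Gad1, Ptf1a and Slc32a1, were lower at P4 in pHes1_ENC. They had 16.16, 25.41 and 20.40 at P1 and 1.167, 4.332 and 2.837 at P4. Ganglion cell markers summed to 22.4, 16.8, 2.30 and 2.31. Bipolar markers summed to 0.753 to 9.35 and microglia markers to 1.86 to 8.15. Of the vessel markers (sums of 14.8 to 212), Kdr gave 188.9 of 193 in P4 pHes1_EPC. Pecam1, Cdh5 and Tie1 were under an FPKM of 1 in all 4 libraries. Cldn5 had 16.34, 3.487, 2.589 and 4.061 in the same order, and Kdr 46.85, 208.8, 12.01 and 188.9. The vessel sums thus mainly followed Kdr. These marker sums differed between fractions, between ages or both, and their part in the PRC2 differences given next was not tested. In such bulk libraries fewer cells of a type and less RNA per cell cannot be told apart, and age and library cannot be told apart either.

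Hes1, whose promoter drives the sorted EGFP, had an FPKM of 16.58 in pHes1_ENCs against 104.5 in pHes1_EPCs at P1, and 3.586 against 93.53 at P4. Hes5, another Notch target, had 64.80, 282.2, 16.29 and 323.9. Both followed the sort.

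Promoter sequences were examined because many S phase genes carry binding motifs of E2F factors, and Ezh2 is a known E2F target. The RefSeq promoter windows of the GRCm38.p6 build run from 250 bases before to 50 bases after a gene's start. They were searched on both strands for TTTGGCGC, TTTGCCGC, TTTCGCGC and TTTCCCGC, the 4 forms of an E2F motif. No form is the reverse complement of another, but sites on opposite strands can overlap. All 10 PRC2 genes had a window, and Jarid2 and Mtf2 had 2 each. A match lay in the windows of Ezh2, Suz12 and Phf19, shown here on the strand of the gene with the motif in capitals.
Ezh2: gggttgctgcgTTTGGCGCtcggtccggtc
Suz12: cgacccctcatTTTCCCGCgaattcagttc
Phf19: gtcaataattcGCGGGAAAacgcgaaaaag

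The Ezh2 stretch is chr6:47595009-47595038 on the minus strand, and its motif begins at base 4 of the transcript. The Suz12 stretch is chr11:79992876-79992905 on the plus strand, with the motif at positions -219 to -212 from the start. The Phf19 stretch is chr2:34914166-34914195 on the minus strand. There the capitals are TTTCCCGC read on the opposite strand, at positions -208 to -201. The motif was present in 744 of all 32851 windows (2.26%) and in the windows of 704 of 27025 genes (2.60%). Among the 20 S phase genes with a window, 9 had a match. The windows of Ezh1, Eed, Rbbp4, Rbbp7, Jarid2, Mtf2 and Phf1 did not contain these letters. Such a match describes the sequence and not a binding site.

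Among the 10 genes, 2 were more than 2-fold higher in pHes1_EPC than in pHes1_ENC at P1, and 3 were more than 2-fold lower. A difference here is log2(FPKM + 1) in pHes1_EPC minus that in pHes1_ENC, and 2-fold is a difference of 1 on that scale. The genes higher at P1 were Rbbp7 and Phf19, and the genes lower were Ezh1, Jarid2 and Phf1. Of the 12557 genes that could pass the threshold, which have an FPKM above 1 in either library, 10.6% were higher and 11.8% were lower. At P4, 0 of the 10 were more than 2-fold higher, where 17.4% of 12391 genes were. The lower ones were again Ezh1, Jarid2 and Phf1, where 9.56% of genes were lower. The median difference of the PRC2 genes was 0.46 at P1 and -0.07 at P4, and that of all genes that could pass was 0.03 and 0.17.

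The Cufflinks 95% intervals of the fractions did not overlap for any of the 10 genes at P1, and for 8 at P4, with Eed and Mtf2 overlapping. Such intervals were also separate for 68.5% of genes at P1 and for 74.8% at P4, so that separation was common at this depth. For 9 of the genes the half-width of an interval was 2.86% to 11.9% of the FPKM, and for Phf19 it reached 37.4%. The intervals cover counting error only and say nothing of variation between animals or sorts.

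**Figure D1:**
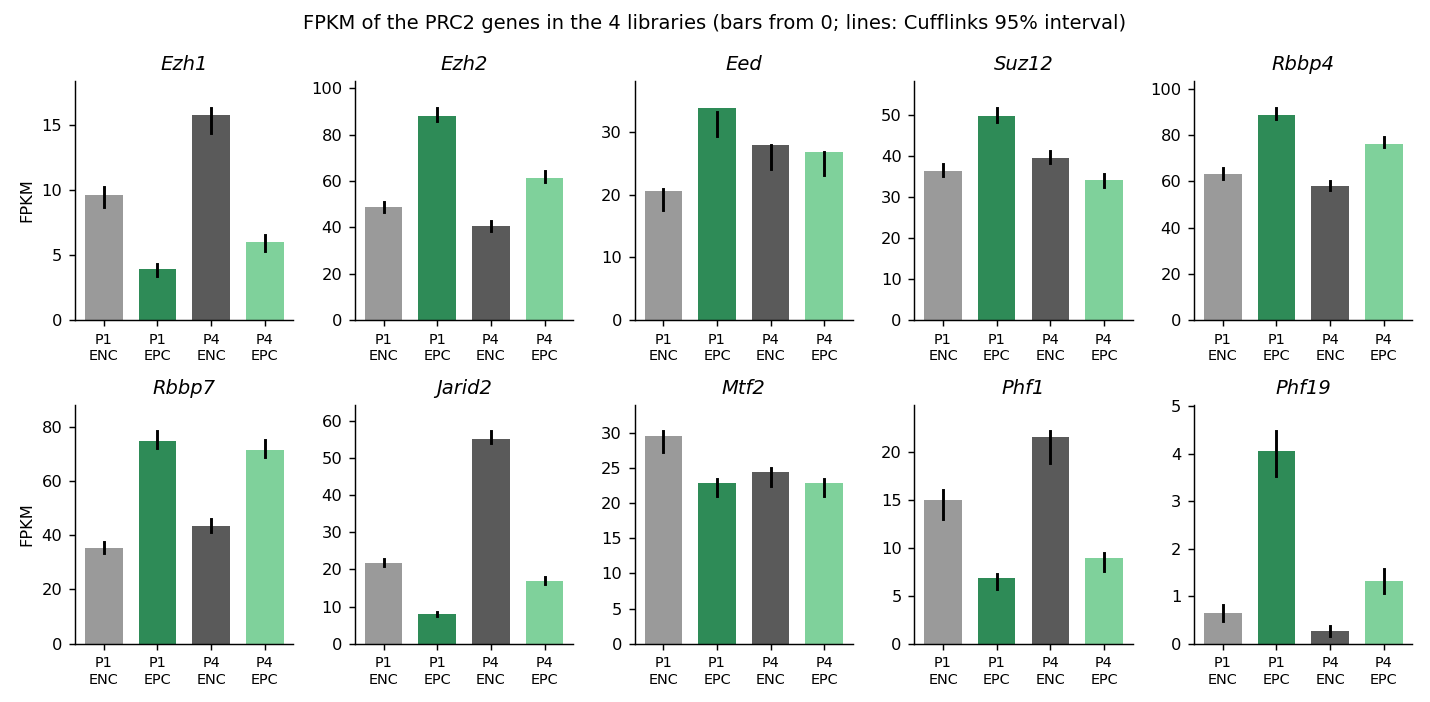
FPKM of each PRC2 gene (vertical axes, each from 0) in the 4 libraries, with the Cufflinks 95% interval as a line. Ezh1, Jarid2 and Phf1 have their lower bars in both pHes1_EPC libraries, whereas Ezh2, Rbbp4, Rbbp7 and Phf19 have their higher bars there; the FPKM of Eed in P1 pHes1_EPC (33.88) lies above its own interval.

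The catalytic subunits differed between the fractions in opposite directions. Ezh2 (chr6:47480273-47545029 of mm9, minus strand) is the main methyltransferase of dividing cells. Its FPKM was 48.73 in pHes1_ENCs against 88.01 in pHes1_EPCs at P1, and 40.42 against 61.34 at P4. Both pHes1_EPC libraries were above both pHes1_ENC libraries. The ratio of pHes1_EPC to pHes1_ENC was 1.81 at P1 (range 1.68 to 1.97 from the ends of the intervals) and 1.52 at P4 (1.40 to 1.67), under 2-fold at both ages.

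Ezh1 (chr11:101052429-101087764, minus strand) encodes the methyltransferase that is less tied to division. Its FPKM was 9.588 in pHes1_ENCs against 3.897 in pHes1_EPCs at P1, and 15.79 against 5.961 at P4. Both pHes1_ENC libraries were above both pHes1_EPC libraries. Ezh1 was 2.46 times as high in pHes1_ENC as in pHes1_EPC at P1 (2.00 to 3.01) and 2.65 times at P4 (2.22 to 3.08). On the log2(FPKM + 1) scale the differences were -1.11 and -1.27.

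Since FPKM is divided by transcript length, both methyltransferases were set side by side within each library. Ezh2 exceeded Ezh1 in all 4 libraries, 5.08 times in pHes1_ENCs against 22.6 times in pHes1_EPCs at P1, and 2.56 times against 10.3 times at P4. The share of Ezh1 in their summed FPKM was 16.4% (range 14.5 to 18.1) in P1 pHes1_ENC and 4.24% (3.58 to 4.81) in P1 pHes1_EPC. It was 28.1% (25.3 to 29.9) in P4 pHes1_ENC and 8.86% (7.63 to 9.85) in P4 pHes1_EPC. The 4 ranges did not overlap, and the share was higher in pHes1_ENC at each age and higher at P4 in each fraction. The summed FPKM of the pair was 58.3, 91.9, 56.2 and 67.3 in the same order, so the pHes1_ENC libraries differed little in the sum and more in its makeup.

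**Figure D2:**
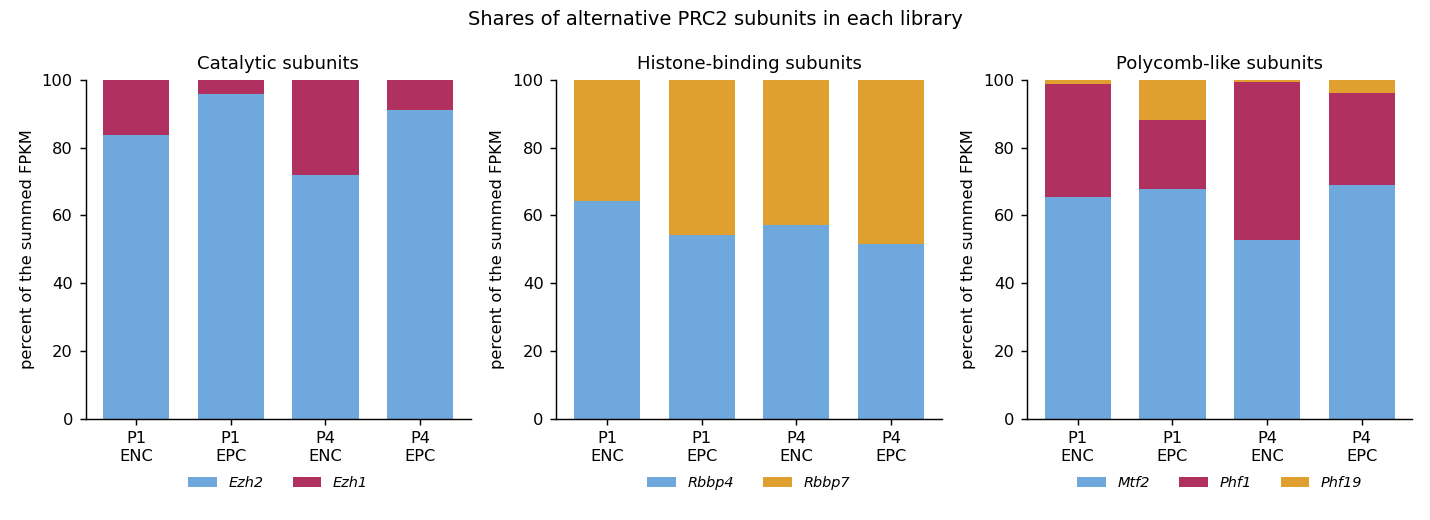
Percent of the summed FPKM (vertical axes) given by Ezh1 and Ezh2, by Rbbp4 and Rbbp7, and by Mtf2, Phf1 and Phf19 in the 4 libraries. The share of Ezh1 goes from 4.24% in P1 pHes1_EPC to 28.1% in P4 pHes1_ENC, and Phf1 reaches 46.7% of the Polycomb-like sum in P4 pHes1_ENC.

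Genes with a pattern like those of Ezh1 and Ezh2 were looked for over the 4 libraries by the Euclidean distance of centred log2(FPKM + 1), among the 10461 genes that reached an FPKM of 5 in some library. The 5 nearest to Ezh1 were Lhfpl3 (distance 0.0236), Epb4.1 (0.0609), Taok3 (0.0660), Ulk3 (0.0798) and Cecr2 (0.0857). Phf1 was number 23 in that order (0.184), ahead of every other PRC2 gene, and Jarid2 was number 588 (0.649). The 5 nearest to Ezh2 were Rab36 (0.0498), Polr1a (0.0601), Rad9 (0.0663), Raver1 (0.0905) and Slc44a2 (0.0969). The nearest PRC2 gene to Ezh2 was Rbbp4, number 361 (0.363), and Ezh1 was number 9342 (2.14). Phf19 did not reach the level required. With 4 points such likeness is a description only.

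The core subunits Eed and Suz12 differed between the fractions at P1 but not in the same way at P4. Suz12 (chr11:79806608-79847625, plus strand), the scaffold of the complex, had an FPKM of 36.24 in pHes1_ENCs against 49.61 in pHes1_EPCs at P1, and 39.42 against 34.04 at P4. The P1 pHes1_EPC library was the highest of the 4 and the P4 pHes1_EPC library the lowest, with an interval that overlapped that of P1 pHes1_ENC. The difference was 0.44 at P1 and -0.21 at P4, with intervals that did not overlap at either age. A turn of this kind, higher in pHes1_EPC at P1 and lower at P4 with separate intervals both times, was seen for 232 of 12942 genes with an FPKM above 1 in some library (1.79%). It was noticed after the values had been seen.

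Eed (chr7:97103164-97129486, minus strand), the reader of the methylated histone, had 20.54 in pHes1_ENCs against 33.88 in pHes1_EPCs at P1, and 27.85 against 26.76 at P4. The P1 libraries were the lowest and the highest, and the P4 libraries lay between them and close together. The ratio of pHes1_EPC to pHes1_ENC was 1.65 at P1 (1.41 to 1.89) and 0.961 at P4 (0.826 to 1.12), a range that includes no difference. The value of Eed in P1 pHes1_EPC lies above its own interval of 29.32 to 33.20, the only one of 40 values of the PRC2 genes that does so. The values of Hes1 and Hes5 also lay above their own intervals, except that of Hes1 in P4 pHes1_ENC. For Hes5 in P1 pHes1_EPC the FPKM was 282.2 and the interval 232.9 to 246.5. Ranges built from such intervals are therefore approximate. Compared with P1, the P4 difference was lower by 0.75 for Eed and by 0.65 for Suz12, where the median gene moved up by 0.19.

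Rbbp4 and Rbbp7 were higher in pHes1_EPCs at both ages. Rbbp4 (chr4:128984344-129012614, minus strand) had the highest FPKM of the 10 in every library. Its FPKM was 63.29 in pHes1_ENCs against 88.71 in pHes1_EPCs at P1, and 57.91 against 76.33 at P4. Rbbp7 (chrX:159198304-159217022, plus strand) had 35.37, 74.80, 43.54 and 71.56 in the same order. For both genes the pHes1_EPC libraries were above the pHes1_ENC libraries. The ratio between fractions was 1.40 at P1 (1.32 to 1.50) and 1.32 at P4 (1.24 to 1.40) for Rbbp4. For Rbbp7 it was 2.11 (1.92 to 2.34) and 1.64 (1.50 to 1.82). The share of Rbbp7 in the summed FPKM of the pair was 35.8% in pHes1_ENCs against 45.7% in pHes1_EPCs at P1, and 42.9% against 48.4% at P4.

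Reads of Rbbp7 were the least unique among the 10 genes, as 29.6% of the 36-base pieces of its annotated transcript also occur elsewhere in the genome. This share was 6.57% for Suz12, 5.54% for Rbbp4, 3.83% for Mtf2, 1.63% for Jarid2 and at most 0.540% for the other 5. The end of the Rbbp7 gene also overlaps Txlng on the other strand, and the protocol does not mark strand. Txlng had an FPKM of at least 7.44 in each library. Rbbp4 overlaps Sync likewise, which had at most 0.202.

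Among the accessory subunits, Jarid2 and Phf1 were lower in pHes1_EPCs at both ages, Phf19 was higher, and Mtf2 differed least. Jarid2 (chr13:44826143-45017012, plus strand), a DNA-binding partner that helps to recruit the complex, had an FPKM of 21.71 in pHes1_ENCs against 7.909 in pHes1_EPCs at P1, and 54.95 against 16.97 at P4. The P4 pHes1_ENC library stood well above the others. Jarid2 was 2.74 times as high in pHes1_ENC as in pHes1_EPC at P1 (2.47 to 3.10) and 3.24 times at P4 (3.01 to 3.55). Its differences between the fractions, -1.35 and -1.64, were the lowest of the 10 at both ages.

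Phf1 (chr17:27070072-27074835, plus strand) is a Polycomb-like protein that binds methylated lysine 36 of histone H3. It had 15.06 in pHes1_ENCs against 6.815 in pHes1_EPCs at P1, and 21.61 against 8.940 at P4. Both pHes1_ENC libraries were above both pHes1_EPC libraries, by 2.21 times at P1 (1.80 to 2.80) and 2.42 times at P4 (2.00 to 2.92). Mtf2 (chr5:108494761-108538021, plus strand), the Polycomb-like protein best known from stem cells, had 29.56, 22.89, 24.38 and 22.89. Its P1 pHes1_ENC library was higher than the other 3, which lay within overlapping intervals. The ratio of pHes1_EPC to pHes1_ENC was 0.774 (0.696 to 0.858) at P1 and 0.939 (0.843 to 1.05) at P4.

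Phf19 (chr2:34749275-34769496, minus strand), the third Polycomb-like gene, was the lowest of the 10 in 3 libraries. It had an FPKM of 0.6422 in pHes1_ENCs against 4.059 in pHes1_EPCs at P1, and 0.2663 against 1.327 at P4. It was highest in P1 pHes1_EPC, where it was close to the Ezh1 level of 3.897 and the intervals of both overlap. The ratio of the fractions was 6.32 at P1 (4.37 to 9.39) and 4.98 at P4 (2.91 to 9.37). At such low values the pseudocount shrinks the log2 difference, which was 1.62 at P1 and 0.88 at P4, so at P4 Phf19 passed 2-fold only with a smaller pseudocount or none.

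Within the Polycomb-like trio, Mtf2 gave the largest share of the summed FPKM in each library. This share was 65.3% in pHes1_ENCs against 67.8% in pHes1_EPCs at P1, and 52.7% against 69.0% at P4. The share of Phf1 was 33.3%, 20.2% and 46.7% in the first 3 of these libraries and had a range of 23.4% to 29.9% in P4 pHes1_EPC. The share of Phf19 was 1.42%, 12.0%, 0.576% and 4.00% in the 4 libraries. Mtf2 and Phf1 were closest to equal parts in P4 pHes1_ENC, and the part of Phf19 was largest in P1 pHes1_EPC.

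**Figure D3:**
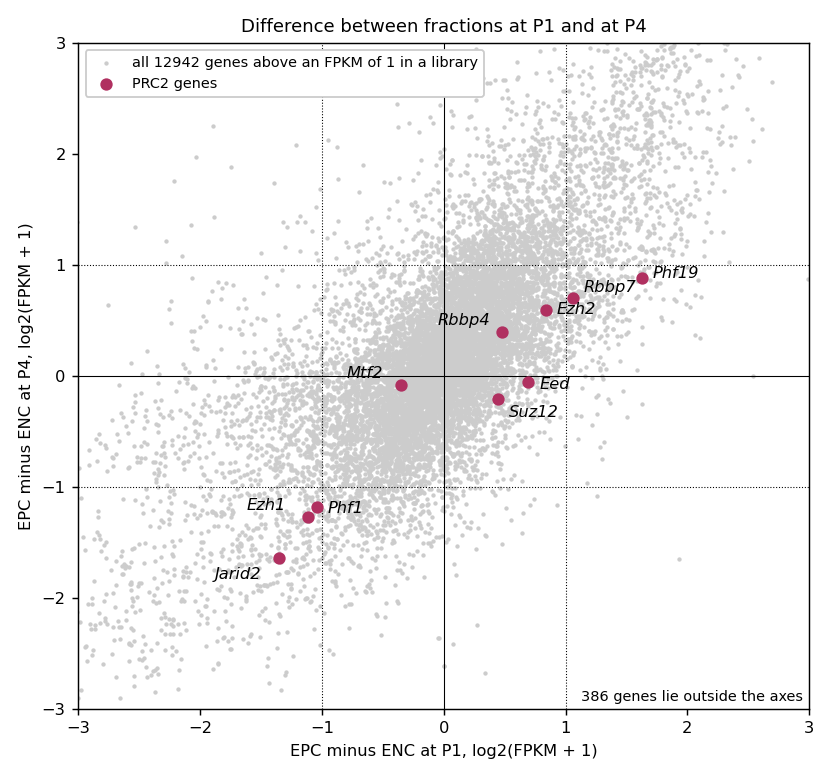
Difference in log2(FPKM + 1) between pHes1_EPC and pHes1_ENC at P1 (horizontal axis) and at P4 (vertical axis) for the 10 PRC2 genes and for 12942 genes, of which 386 lie outside the axes; dotted lines mark 2-fold. Ezh1, Jarid2 and Phf1 lie past 2-fold at both ages, and Eed and Suz12 lie to the right of 0 at P1 and just under 0 at P4.

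Between P1 and P4 Jarid2 was the gene that differed most in pHes1_ENCs, and Jarid2 and Phf19 differed most in pHes1_EPCs. In pHes1_ENCs Jarid2 was 2.53 times as high at P4 as at P1 (2.36 to 2.74), and it was 1 of 10 genes past 2-fold upward, where 4.88% of 12383 genes were. Past 2-fold downward were 0 of the 9 genes that could pass, where 10.5% of genes were. Phf19 could not pass, as it was under an FPKM of 1 in both pHes1_ENC libraries, but by the ratio of FPKM it was 2.41 times as high at P1 as at P4 there (1.30 to 4.80). The intervals of the ages were separate for all 10 genes and for 59.8% of genes. In pHes1_EPCs Jarid2 was 2.15 times as high at P4 (1.90 to 2.43), the only one of the 10 past 2-fold upward (1.01 on the log2 scale), where 7.43% of 12258 genes were. Under the 3 other scalings this difference was 0.70 to 0.90, so the call was lost. Phf19 was 3.06 times as high at P1 as at P4 (2.24 to 4.18), the only one past 2-fold downward, where 4.57% were. Intervals were separate for 8 of the 10, Rbbp7 and Mtf2 excepted, and for 68.1% of genes.

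Below 2-fold, Ezh1 was higher at P4 by 0.67 in pHes1_ENCs and by 0.51 in pHes1_EPCs on the log2(FPKM + 1) scale. Phf1 was likewise higher by 0.49 and 0.35. Ezh2 differed by -0.26 and -0.51 and Rbbp4 by -0.13 and -0.21, so both were lower at P4 in each fraction. The remaining differences, in pHes1_ENC and then in pHes1_EPC, were 0.42 and -0.33 for Eed, 0.12 and -0.53 for Suz12, 0.29 and -0.06 for Rbbp7, -0.27 and -0.00 for Mtf2, and -0.38 and -1.12 for Phf19. Eed and Suz12 thus had opposite signs in the fractions, with separate intervals in each, but the difference of Suz12 in pHes1_ENCs was -0.01 after rescaling to the same total and -0.02 after quantile normalization. The medians of the PRC2 genes were 0.21 and -0.14, and those of all genes that could pass were 0.00 and 0.19.

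**Figure D4:**
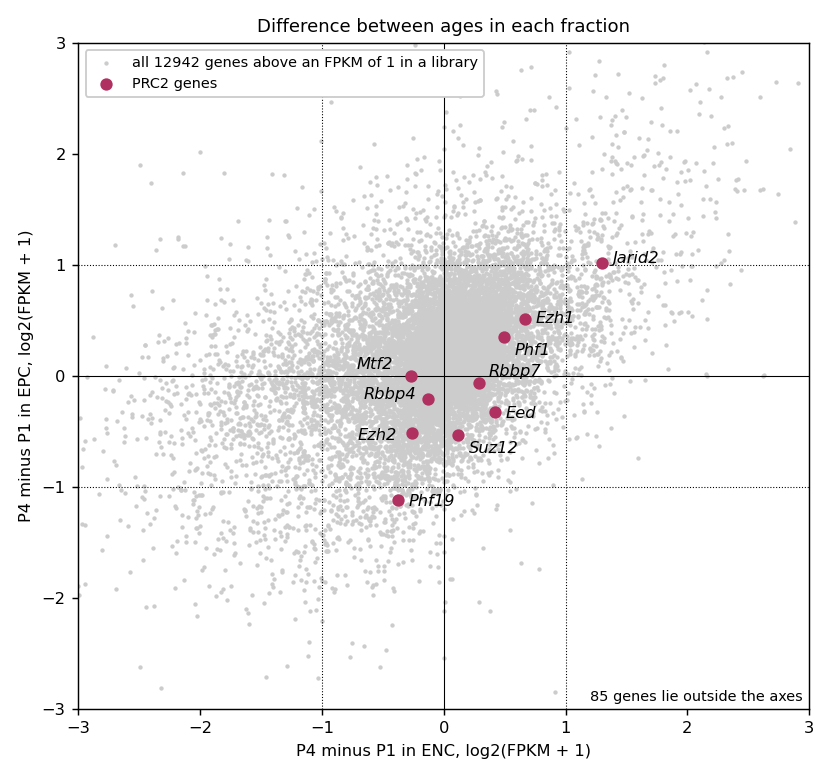
Difference in log2(FPKM + 1) between P4 and P1 in pHes1_ENC (horizontal axis) and in pHes1_EPC (vertical axis) for the 10 PRC2 genes and for 12942 genes, of which 85 lie outside the axes; dotted lines mark 2-fold. Jarid2 lies at 1.30 and 1.01, Ezh1 and Phf1 are above 0 in both fractions, and Eed and Suz12 are above 0 in pHes1_ENC and below 0 in pHes1_EPC with the FPKM as deposited (Suz12 in pHes1_ENC is just below 0 under 2 of 3 other scalings).

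The scale of P4 pHes1_EPC affects these values. Its FPKM summed to 450080 over all lines, against 342618 to 368805 in the other libraries, and 3 other scalings moved the median difference of all genes by -0.18 to -0.25 for the fractions at P4 and by -0.16 to -0.30 for the ages in pHes1_EPCs. For the ages in pHes1_ENCs, rescaling to the same total moved it by -0.12. Genes higher in pHes1_EPC were 64.5% of those past 2-fold at P4 as deposited and 47.9% to 53.1% under the other scalings. For the ages, the higher genes were 61.9% against 31.9% to 44.3% in pHes1_EPCs and 31.8% against 24.9% to 42.8% in pHes1_ENCs. Under these scalings Ezh2 was still higher in pHes1_EPC at P4, by 0.30 to 0.39, Rbbp4 by 0.10 to 0.19 and Rbbp7 by 0.42 to 0.50. Eed was at -0.34 to -0.18, Mtf2 at -0.37 to -0.21 and Suz12 at -0.49 to -0.36. Between the ages in pHes1_EPCs, Ezh2 was at -0.84 to -0.69, Rbbp4 at -0.55 to -0.39, Rbbp7 at -0.39 to -0.24 and Mtf2 at -0.32 to -0.17 under these scalings. Eed was there at -0.65 to -0.50, Suz12 at -0.86 to -0.70, Ezh1 at 0.23 to 0.45 and Phf1 at 0.05 to 0.28. Rbbp7 at P1 was at 0.98 after rescaling to the same total, just below 2-fold.

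Ratios within a library do not depend on such a factor. Jarid2 relative to the scaffold Suz12 was 0.599 in pHes1_ENCs against 0.159 in pHes1_EPCs at P1, and 1.39 against 0.499 at P4. Only in P4 pHes1_ENC did Jarid2 exceed Suz12, and there it was the second most abundant of the 10. The Polycomb-like trio relative to Suz12 was 1.25, 0.681, 1.17 and 0.974, and the methyltransferase pair relative to Suz12 was 1.61, 1.85, 1.43 and 1.98. Jarid2 relative to Mtf2, the markers of alternative forms of the complex, was 0.734, 0.345, 2.25 and 0.741. By these ratios of transcripts the libraries differed most in Jarid2 and least in the methyltransferase pair.

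By FPKM, Rbbp4 came first in the order of levels in all 4 libraries. Its interval overlapped that of Jarid2 in P4 pHes1_ENC and that of Rbbp7 in P4 pHes1_EPC. In P1 pHes1_ENC Rbbp4 was followed by Ezh2, Suz12, Rbbp7, Mtf2, Jarid2, Eed, Phf1, Ezh1 and Phf19. The intervals of Suz12 and Rbbp7 overlapped in that library. In P1 pHes1_EPC Ezh2 was level with Rbbp4, with overlapping intervals, and Ezh1 was last. In P4 pHes1_EPC the order was Rbbp4, Rbbp7, Ezh2, Suz12, Eed, Mtf2, Jarid2, Phf1, Ezh1 and Phf19. Among genes that reached an FPKM of 1, Ezh2 was at percentile 85.5 to 95.5 of its library and Ezh1 at percentile 18.0 to 58.5.

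Further genes of PRC2 subunits were taken from a list by symbol. The Lcorl and Lcor loci encode the PALI2 and PALI1 subunits among other products, which values per gene do not separate. Lcorl had an FPKM of 47.77 in pHes1_ENCs against 12.97 in pHes1_EPCs at P1, and 70.16 against 16.85 at P4. Lcor had 3.850, 2.692, 3.311 and 0.3971. Aebp2, a partner of Jarid2 in the same form of the complex, had 21.28, 31.93, 21.68 and 16.85, higher in pHes1_EPC at P1 and lower at P4 as Suz12 was. E130012A19Rik (Epop), which joins Mtf2-type complexes, had 8.841, 5.071, 3.360 and 5.520. Of these 4 genes, 0 were past 2-fold upward and 1 downward at P1 (Lcorl), and 0 and 2 at P4 (Lcorl and Lcor).

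The H3K27 demethylases remove the mark that PRC2 places. Kdm6b had an FPKM of 39.51 in pHes1_ENCs against 9.564 in pHes1_EPCs at P1, and 45.78 against 16.74 at P4, past 2-fold lower in pHes1_EPCs at both ages (-1.94 and -1.40). Kdm6a differed by -0.19 and -0.40, and its Y-linked relative Uty by -0.19 and -0.56. Kdm6b therefore lay on the same side as Ezh1 and Jarid2 and opposite to Ezh2.

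Other complexes were compared as whole lists. The 19 genes of Polycomb repressive complex 1, which binds the H3K27 mark, had median differences of -0.27 at P1 and -0.43 at P4. Past 2-fold at P1 were Pcgf5 upward (1.22) and Bmi1 downward (-1.09), which are named after their values were seen. The 15 NuRD and Sin3 genes, partners of Rbbp4 and Rbbp7 in deacetylase complexes, had medians of 0.07 and 0.35. Of these Chd3, a remodelling ATPase, was lower at both ages (-1.69 and -1.64), and at P4 Mta3 was higher (1.98) and Gatad2b lower (-1.49), also named after their values were seen. Both subunits of CAF-1, which assembles nucleosomes behind the replication fork together with Rbbp4, were past 2-fold higher at both ages, Chaf1a by 1.95 and 1.27 and Chaf1b by 2.17 and 2.37.

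The S phase genes set a scale for the difference of Ezh2. All 24 were past 2-fold higher in pHes1_EPC at P1 and 22 at P4, with medians of 2.14 and 2.03. By the smaller of both differences the first 4 were Uhrf1 (2.62 and 3.73), Mcm3 (2.49 and 3.29), Rrm2 (2.46 and 3.70) and Mcm6 (2.45 and 3.05). The lowest S phase difference at P1 was 1.25, and Ezh2 was at 0.84. Of the 8 E2F genes 6 were past 2-fold higher at P1 and 3 at P4, with medians of 1.29 and 0.91. E2f8 (2.42 and 2.71), E2f7 (2.02 and 2.01) and E2f1 (1.88 and 3.47) were so at both ages. Between P1 and P4 the median of the S phase genes was -1.26 in pHes1_ENCs and -1.46 in pHes1_EPCs, where Ezh2 was at -0.26 and -0.51. Ezh2 thus lay on the side of the S phase genes in each comparison and short of their median. Of the PRC2 genes Phf19 (1.62) lay within the S phase range at P1, and Rbbp7 (0.70) and Phf19 (0.88) did so at P4, where that range began at 0.62. Between the ages in pHes1_ENCs the highest S phase difference was -0.24, so Ezh2 (-0.26), Mtf2 (-0.27) and Phf19 (-0.38) lay within that range. In pHes1_EPCs it was -0.83, and Phf19 (-1.12) lay within the range.

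**Figure D5:**
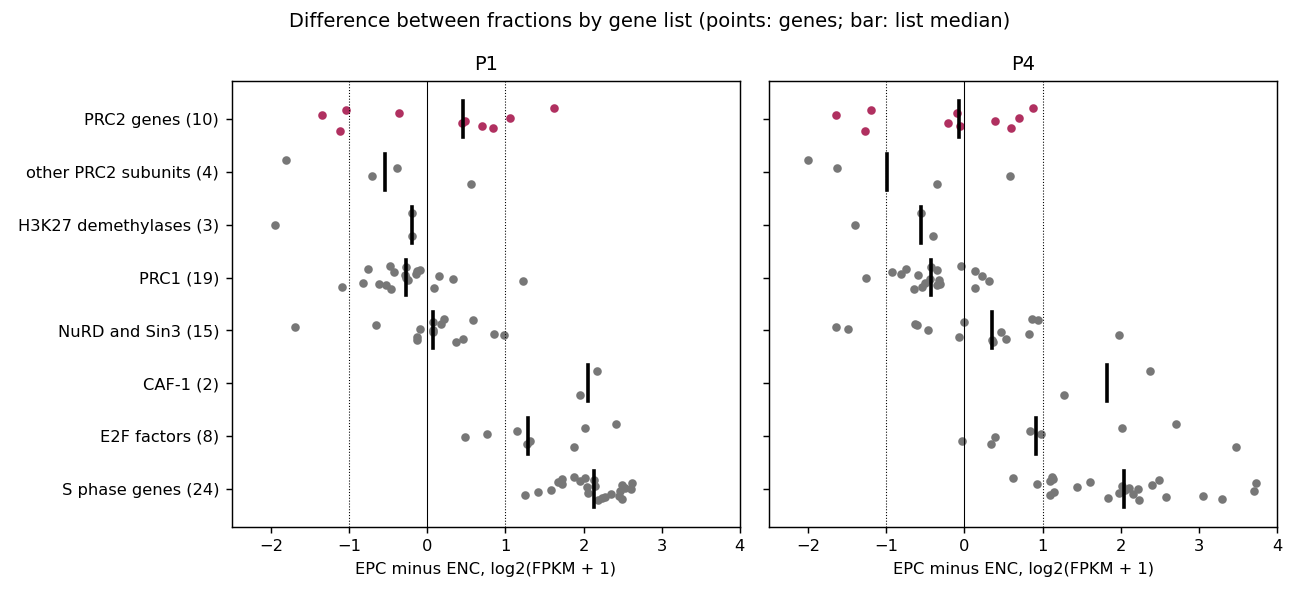
Difference in log2(FPKM + 1) between pHes1_EPC and pHes1_ENC (horizontal axes) at P1 and P4 for each gene of 8 lists, with the number of genes in brackets, the list median as a bar and 2-fold as dotted lines. The PRC2 genes spread from -1.35 to 1.62 at P1 and from -1.64 to 0.88 at P4, whereas the S phase genes lie between 1.25 and 2.62 at P1 and between 0.62 and 3.73 at P4.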

How the data were processed

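RNA-seq tables of pHes1_EPCs and pHes1_ENCs at P1 and P4 were analyzed, 1 library for each group. The libraries were made with random primers and read as single ends of 36 bases. The authors aligned the reads to NCBI37/mm9 with TopHat2 2.0.8b and deposited the gene FPKM of Cufflinks 2.1.1 with 95% intervals, which were used without rescaling. Read counts were not used here.

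Python 3.11.15 with numpy 2.4.6, pandas 2.3.3, numba 0.67.0 and matplotlib 3.10.9 was used. Of 23021 lines, 795 of small RNAs were left out. For 234 symbols with more than 1 line the one of highest FPKM was used. Differences are of log2(FPKM + 1), and genes with an FPKM above 1 in either library could pass 2-fold. Ranges of ratios and shares combine opposite ends of the intervals. With 1 library in a group no p-value is given. The functions were tested on simulated data.

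The PRC2 genes and the lists were chosen with earlier results of these data known. Named were the PRC2 genes, Hes1 and Hes5, all genes of lists under 6, and the 5 genes most like Ezh1 and Ezh2. Marker lists were given by their sums. Kdr, Slc6a9, Ccnd1, Apoe and Rlbp1 were named for their part in a sum or in its difference between ages. The other vessel and amacrine markers found are given beside Kdr and Slc6a9. All of these were named after their values were seen. At most 4 genes of longer lists past 2-fold at both ages were also named. Pcgf5, Bmi1, Mta3 and Gatad2b were added after their values were seen. Sequences are of RefSeq (GRCm38.p6), and the motif was chosen after the values were seen. The 36-base pieces of each longest coding transcript of GENCODE were searched in NCBI37. Epop was listed under its older symbol, and Tfap2a and Tfap2b were not matched in the amacrine list. The alternatives were a pseudocount of 0.1 or none, an FPKM of at least 1, 3 scalings (to equal totals, by medians of ratios, by quantiles), summed lines and separate intervals. Not every gene of the lists is reported here.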

Additional observations from a re-analysis of the deposited data

Results flagged for a closer look

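Suz12 and Eed moved in opposite directions in groups under the same contrast, with Cufflinks intervals that did not overlap. For Suz12 the fractions differed by 0.44 at P1 and by -0.21 at P4, and the P4 value minus the P1 value was -0.65. By construction the age difference in pHes1_EPC minus that in pHes1_ENC was the same, -0.65 for Suz12 (-0.53 and 0.12). The 0.12 in pHes1_ENC turned to -0.01 after rescaling to the same total and to -0.02 after quantile normalization, so the opposite age directions of Suz12 were lost under both. For Eed the age difference was -0.33 in pHes1_EPC and 0.42 in pHes1_ENC, and the first minus the second was -0.75. These differences of differences were not tested, since each group is 1 library. An age difference with opposite signs and separate intervals in the fractions was seen for 1311 of 12942 genes (10.1%), and a fraction difference of that kind at the ages for 736 (5.69%).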

How the results depend on the processing

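No paired analysis was possible because each group is 1 library. Ezh1, Jarid2 and Phf1 were more than 2-fold lower in pHes1_EPC at P1 and P4 under all 8 alternatives. By construction, summed lines and the FPKM minimum could not change the call of a PRC2 gene. Each of these genes has 1 line, and a difference past 2-fold already requires an FPKM above 1. A pseudocount of 0.1 or none can only enlarge a difference, so neither could remove a call. Under quantile normalization, under median-of-ratios scaling and after rescaling to the same total, no PRC2 gene past 2-fold changed sign. The other alternatives could not change the sign of a PRC2 gene by construction. With a pseudocount of 0.1 or with none, 1 gene (Phf19) was past 2-fold higher at P4 and 1 (Phf19) was past 2-fold lower at P4 in pHes1_ENCs. Rescaling to the same total left 1 gene (Phf19) higher at P1. In pHes1_EPCs 0 genes were higher at P4 under quantile normalization, under median-of-ratios scaling and after rescaling to the same total.

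Over all genes, a pseudocount of 0.1 gave 2057 higher and 2472 lower at P1 (1331 and 1483 as reported), 1963 lower at P4 (1184), 1009 higher and 2502 lower between ages in pHes1_ENCs (604 and 1297), and 1714 and 1162 in pHes1_EPCs (911 and 560). With no pseudocount these were 3008 and 3818 at P1, 4390 higher (2150 as reported) and 3182 lower at P4, 1898 and 4027 in pHes1_ENCs, and 3020 and 2227 in pHes1_EPCs. Between ages in pHes1_EPCs, rescaling to the same total gave 464 and 991, and quantile normalization gave 593 higher. By construction a smaller pseudocount lets more genes of low FPKM pass. Depth limits Phf19 most, as its intervals were the widest.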

Other observations

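Hox genes are textbook targets of PRC2 and are silent in the head anterior to the hindbrain. All 39 Hox genes measured had an FPKM below 1 in the 4 libraries, and 27 were listed at 0 in each of them. The highest value of any Hox gene was 0.0518, in P4 pHes1_ENC. Summed over the 39 genes, the FPKM was 0.0794 in pHes1_ENCs against 0.0556 in pHes1_EPCs at P1, and 0.105 against 0.103 at P4. These sums are too low for a difference between fractions or ages to be read from them.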
